A study of Mus musculus with 8 samples.

Results

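The 39 genes described here encode the centromere, the kinetochore and the spindle checkpoint of the mouse, and they are 39 of 55359 genes in the deposited count table. The rule that defines the set lists gene symbols and uses no measured value, and each symbol was found once. The centromere is the chromosomal site that is marked by the histone CENP-A, and it carries the constitutive centromere network throughout the cell cycle. In mitosis the outer kinetochore, built from the Mis12, Knl1 and Ndc80 complexes, is assembled on it and binds microtubules. Kinetochores without microtubules activate the spindle checkpoint, which holds back separation of the chromosomes, while the chromosomal passenger complex with the kinase Aurora B releases wrong attachments. Many of these genes are transcribed mainly in G2 phase and mitosis, so that their RNA is low in cultures with few dividing cells.

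RNA was sequenced from 8 cultures of untreated peritoneal mast cells (PMCs) with wild-type genotype and the strain C57BL/6x129/Sv. PMC-303 and PMC-306 are lines that arose spontaneously from ageing PMC cultures, and each is represented by 1 library. The 6 primary WT PMC cultures came from 3 female and 3 male mice and were kept for at most 8 weeks. The medium of all cultures held IL-3 (30 ng/ml). FCS was 10% for the lines and 15% for primary cultures, and SCF was 5 ng/ml and 20 ng/ml, and thus effects of medium and of transformation cannot be told apart. In the karyotypes of the study, part of the PMC-303 cells carried an additional chromosome 8, whereas all PMC-306 cells had lost a segment of one copy of chromosome 4 and some had a translocation between the Y chromosome and chromosome 17. In bulk RNA, more dividing cells and more RNA per dividing cell cannot be told apart either. Values are CPM, counts of a gene relative to library sizes that were scaled by TMM (trimmed mean of M values). Libraries held 15918758 to 24180226 counts. A count of 0 would allow up to 3 counts, which is 0.123 to 0.187 CPM, and no member was below this level in any library. This limit covers counting error only.

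All libraries expressed mast cell genes, with a summed level of 9 markers of 43469 and 40067 CPM in PMC-303 and PMC-306 and of 53019 to 83082 CPM in primary cultures. Carboxypeptidase A3 (Cpa3) had 23601 and 22835 CPM in the lines and 21763 to 38179 CPM in primary cultures, while Kit, Fcer1a, Il1rl1 and Tpsb2 were called lower in the lines by limma. For the tryptase gene Tpsb2 these were 177 and 20.9 CPM against 2857 to 10441 CPM. The part of this in the results was not tested. The summed level of 8 macrophage markers was 8.93 CPM in PMC-303, 452 CPM in PMC-306 and 7.54 to 68.8 CPM in primary cultures. Of the 452 CPM, Adgre1 made up 426 CPM, Cd68 13.9 CPM and Icam2 10.6 CPM, while Csf1r was below 0.1 CPM and C1qa and C1qb were at 0 in PMC-306. Primary cultures had 1.48 to 17.8 CPM of Cd68 and 0.0879 to 1.10 CPM of Icam2, and Icam2 was called higher in the lines (adjusted p = 0.0193 by limma). Without PMC-306, 36 members were higher in the remaining line, where the call of Cenpo was lost and that of Mis12 gained, and the lone library was assumed to vary like the primary cultures. Markers of B cells, T cells, neutrophils, eosinophils and of fibroblasts and mesothelium summed to at most 0.255 CPM in every library.

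In both PMC lines, nearly the whole set was more abundant than in primary WT PMCs. By limma with Benjamini-Hochberg adjustment over 14525 genes, 36 of 39 members were higher in the lines at an adjusted p under 0.05 and 0 were lower. At an unadjusted p under 0.05, and by limma voom, 0 were lower as well. Of all genes tested, 18.3% were higher and 15.5% lower. The median log2 difference of the members was 2.87, a 7.29-fold rise, and that of all genes tested was -0.01. For 36 members both lines lay above all 6 primary cultures, which was the case for 22.9% of all genes tested. The genes fell into 16 members with a log2 difference of at least 3, 13 between 2 and 3, 4 between 1 and 2, and 6 under 1. Several members belong to general G2/M gene lists that are known to be raised in these libraries, so that their rise is not independent evidence.

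**Figure D1:**
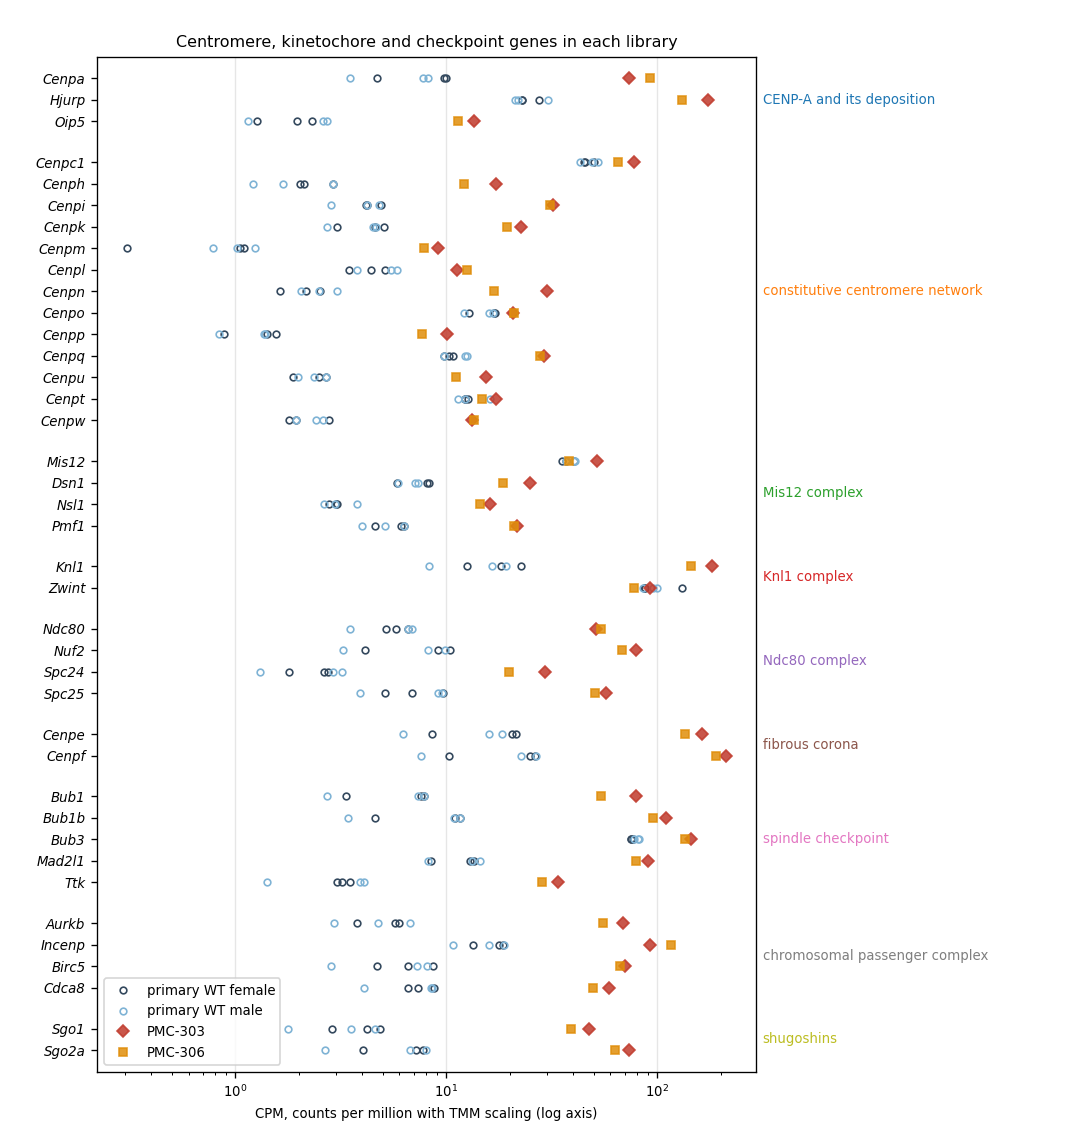
CPM of the 39 members in each library on a log axis, ordered by complex. Open circles are the 6 primary WT cultures, red diamonds PMC-303 and orange squares PMC-306. For 36 members both lines lie to the right of all primary cultures, and Cenpt, Mis12 and Zwint overlap with them.

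The promoters of the members with the largest and the smallest absolute difference are shown first, to set the upstream sequence of genes that rose beside that of genes that did not pass the test. Aurkb, which has no promoter in the table used, is not among them. They belong to Bub1b and Sgo1, with log2 differences of 3.67 and 3.60, and Zwint and Mis12, with -0.19 and 0.21. The sequences are from the RefSeq promoter table (GRCm38.p6) and cover 250 bases before and 50 bases after the start of the gene, 5′ to 3′ on the strand of the gene. Each was found once in GRCm39, at chr2:118428442-118428741 on the plus strand (Bub1b), at chr17:53996294-53996593 on the minus strand (Sgo1), at chr10:72490428-72490727 on the plus strand (Zwint) and at chr11:70910187-70910486 on the plus strand (Mis12). The Sgo1 window lies within the gene as annotated by GENCODE, whose outermost start is further upstream. Capitals mark 3 motifs, searched on both strands. The first is the CCAAT box, the second the cell cycle homology region, searched as TTTGAA or in the form of TTTAAA, and the third the E2F site, searched as TTTCGCG or in the form of TTTGGCG or in the form of TTTCCCG. They share no site in these windows.
Bub1b: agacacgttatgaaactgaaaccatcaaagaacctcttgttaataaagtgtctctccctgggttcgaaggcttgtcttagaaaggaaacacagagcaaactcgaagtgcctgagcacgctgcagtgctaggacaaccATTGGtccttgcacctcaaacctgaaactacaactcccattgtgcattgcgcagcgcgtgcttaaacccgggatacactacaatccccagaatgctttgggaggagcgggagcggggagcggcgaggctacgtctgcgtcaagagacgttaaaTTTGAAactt
Sgo1: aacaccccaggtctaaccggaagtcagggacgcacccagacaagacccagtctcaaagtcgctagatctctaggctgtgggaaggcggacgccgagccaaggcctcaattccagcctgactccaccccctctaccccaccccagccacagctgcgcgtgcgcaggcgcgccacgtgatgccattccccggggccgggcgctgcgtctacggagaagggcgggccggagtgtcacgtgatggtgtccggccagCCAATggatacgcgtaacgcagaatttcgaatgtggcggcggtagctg
Zwint: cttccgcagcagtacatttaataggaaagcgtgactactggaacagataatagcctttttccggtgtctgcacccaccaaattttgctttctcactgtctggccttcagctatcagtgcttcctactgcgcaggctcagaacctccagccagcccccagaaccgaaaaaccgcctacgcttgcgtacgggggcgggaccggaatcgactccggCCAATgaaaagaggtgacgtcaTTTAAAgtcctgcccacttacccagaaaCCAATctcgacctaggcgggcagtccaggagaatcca
Mis12: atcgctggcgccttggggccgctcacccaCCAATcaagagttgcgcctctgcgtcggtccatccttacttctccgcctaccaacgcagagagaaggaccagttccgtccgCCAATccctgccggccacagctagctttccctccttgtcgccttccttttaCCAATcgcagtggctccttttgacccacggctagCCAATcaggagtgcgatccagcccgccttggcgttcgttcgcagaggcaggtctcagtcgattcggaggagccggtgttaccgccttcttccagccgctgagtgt
Bub1b held 1 CCAAT box on the opposite strand 113 bases before the start and TTTGAA 41 bases into the gene. In Sgo1 only a CCAAT box at base 3 of the gene was found among the forms searched. Other forms of the motifs were not searched, here or in the counts that follow. Zwint held 2 CCAAT boxes and TTTAAA, and Mis12 held 4 CCAAT boxes. Among the 35 members in the table, 26 had a CCAAT box, 20 a cell cycle homology region and 7 an E2F site in at least 1 promoter. By promoter, these were 76.9%, 53.8% and 17.9% of 39 member promoters and 37.4%, 27.6% and 5.58% of all 32851 promoters in the table. The E2F site was found in Cenpk, Cenpm, Cenpl, Cenpp, Dsn1, Birc5 and Cdca8. Of the 29 members in the table with a log2 difference of at least 1, 22 had a CCAAT box, 16 a cell cycle homology region and 7 an E2F site. Of the 6 members with a smaller difference, which are all in the table, 4 had a CCAAT box, 4 a cell cycle homology region and 0 an E2F site. A match is a description of letters in this window only.

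At the inner centromere, 15 of 16 members were higher in the lines. For CENP-A itself (Cenpa, GRCm39 chromosome 5, 30824121 to 30842921) PMC-303 had 73.7 CPM, PMC-306 had 92.9 CPM and primary cultures had 3.51 to 9.97 CPM. This is a log2 difference of 3.58 ± 0.39 (SE; adjusted p = 0.000321 by limma), and the groups did not overlap. Hjurp (chromosome 1, 88186586 to 88205405), the chaperone that deposits CENP-A, had 174 CPM in PMC-303, 131 CPM in PMC-306 and 21.1 to 30.5 CPM in primary cultures, median 22.9 CPM. Its log2 difference was 2.64 ± 0.16 (SE; adjusted p = 5.42e-05 by limma). Oip5, which encodes the Mis18 subunit Mis18-beta needed for this deposition, had 13.5 and 11.4 CPM in PMC-303 and PMC-306 and 1.15 to 2.71 CPM in primary cultures. Its reads are uncertain, since an exon of Nusap1 overlaps on the opposite strand and Nusap1 was at 150.3 and 138 CPM in the lines and at 5.14 to 16.3 CPM in primary cultures.

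Within the constitutive centromere network, which links CENP-A chromatin to the outer kinetochore, 12 of 13 members were higher, and the log2 differences of the 13 ran from 0.32 to 3.25. Cenpc1, which encodes the CENP-A binding protein CENP-C, had 77.2 CPM in PMC-303, 65.3 CPM in PMC-306 and 43.0 to 52.6 CPM in primary cultures, median 47.2 CPM. The groups did not overlap, with a log2 difference of 0.58 ± 0.10 (SE; adjusted p = 0.00311 by limma). CENP-T, the other arm that recruits Ndc80, is encoded by Cenpt, which had 17.2 and 14.8 CPM in the lines and 11.4 to 16.2 CPM in primary cultures, median 12.3 CPM. PMC-306 lay within the primary range, and the log2 difference of 0.32 ± 0.14 (SE) did not pass the test (adjusted p = 0.126 by limma). Its partner Cenpw, in contrast, had 13.3 and 13.5 CPM in the lines against 1.80 to 2.79 CPM, a log2 difference of 2.54 ± 0.21 (SE; adjusted p = 0.000112 by limma).

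Subunits that bind each other had unequal differences elsewhere too. CENP-O and CENP-P bind each other, but Cenpo had 20.7 and 21.0 CPM in the lines and 12.1 to 17.0 CPM in primary cultures, whereas Cenpp had 10.1 and 7.71 CPM against 0.839 to 1.56 CPM. The log2 differences were 0.47 ± 0.16 (SE; adjusted p = 0.0477 by limma) and 2.77 ± 0.29 (SE; adjusted p = 0.000267). The call of Cenpo was lost in 11 of the alternative analyses. Likewise, Cenpl rose by 1.35 and its partner Cenpn by 3.25 on the log2 scale. The remaining members Cenph, Cenpi, Cenpk, Cenpm, Cenpq and Cenpu had log2 differences between 1.38 (Cenpq) and 3.16 (Cenpm). Cenpm rests on the fewest reads, with 0.307 to 1.24 CPM in primary cultures and 7 counts in female 2.

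In the outer kinetochore 10 of 12 members were higher. The Mis12 complex bridges the inner centromere and Ndc80. Mis12 (chromosome 11, 70910282 to 70918214) had 51.6 CPM in PMC-303, 38.3 CPM in PMC-306 and 35.5 to 40.9 CPM in primary cultures, median 38.7 CPM. PMC-303 was above all primary cultures and PMC-306 within their range, and the log2 difference was 0.21 ± 0.12 (SE; adjusted p = 0.201 by limma). Without PMC-306 it was 0.42 and passed the test, and without PMC-303 it was -0.00. The other 3 subunits rose, Dsn1 by 1.60, Pmf1 by 1.98 and Nsl1 by 2.30 on the log2 scale. Nsl1, for example, had 16.1 and 14.4 CPM in the lines and 2.62 to 3.78 CPM in primary cultures.

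In the Knl1 complex one member rose and the other did not pass the test. Knl1 (chromosome 2, 118877598 to 118935982), the scaffold on which checkpoint proteins gather, had 181 CPM in PMC-303, 144 CPM in PMC-306 and 8.29 to 22.7 CPM in primary cultures, median 17.3 CPM. The log2 difference was 3.38 ± 0.34 (SE; adjusted p = 0.000217 by limma). Its binding partner Zwint (chromosome 10, 72490601 to 72510803) had 92.1 CPM in PMC-303, 77.9 CPM in PMC-306 and 85.3 to 131 CPM in primary cultures, median 91.5 CPM. PMC-303 lay inside the primary range and PMC-306 under it, and the log2 difference of -0.19 ± 0.16 (SE) did not pass the test (adjusted p = 0.411 by limma). Of the Zwint count cells 6 of 8 had been rewritten in the deposited table and were restored.

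The 4 subunits of the Ndc80 complex, which holds the microtubule, all rose. Ndc80 had 51.2 and 54.2 CPM in PMC-303 and PMC-306 and 3.51 to 6.90 CPM in primary cultures, and Nuf2 had 79.0 and 68.2 CPM against 3.25 to 10.4 CPM. Log2 differences were 3.20 ± 0.24 (SE; adjusted p = 8.52e-05 by limma) for Ndc80, 3.40 for Nuf2, 3.32 for Spc24 and 2.93 for Spc25. On the fibrous corona, the outermost layer, the motor protein gene Cenpe had 163 and 135 CPM in the lines against 6.24 to 21.4 CPM. Cenpf, encoding a large corona protein, had 212 and 189 CPM against 7.61 to 26.5 CPM in primary cultures, median 23.7 CPM. Their log2 differences were 3.42 and 3.49, with standard errors of 0.47 and 0.50.

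**Figure D2:**
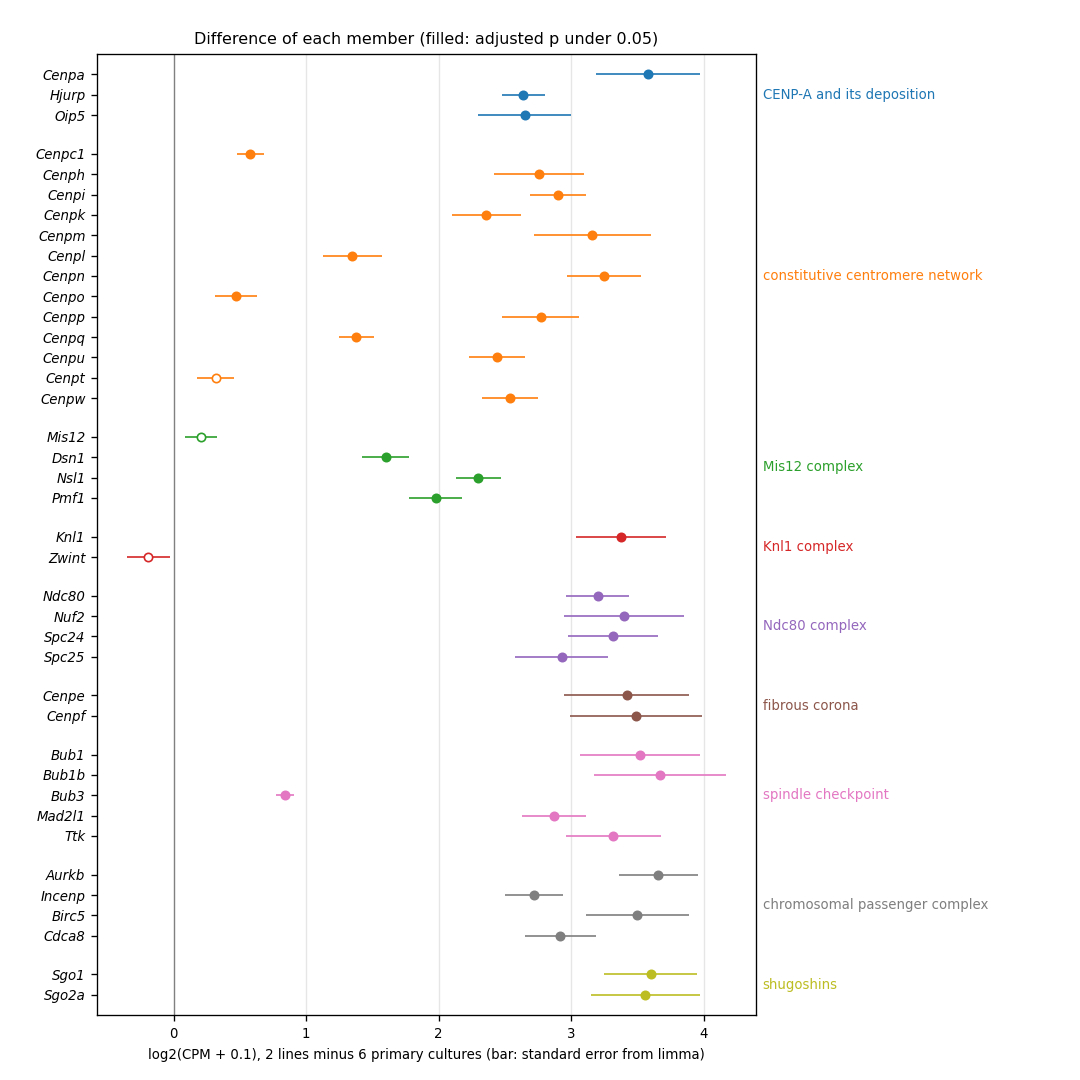
Log2 difference of each member between the 2 lines and the 6 primary cultures, with the standard error from limma, ordered and coloured by complex. Filled points passed an adjusted p of 0.05 and open points (Cenpt, Mis12, Zwint) did not. The constitutive centromere network spans 0.32 to 3.25, while the Ndc80 complex lies between 2.93 and 3.40.

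All 11 members of the spindle checkpoint, the chromosomal passenger complex and the shugoshins were higher in the lines. Bub1b, which encodes the checkpoint protein BubR1, had the largest log2 difference of all members. It had 109.6 CPM in PMC-303, 96.0 CPM in PMC-306 and 3.41 to 11.6 CPM in primary cultures, median 11.0 CPM, a log2 difference of 3.67 ± 0.50 (SE; adjusted p = 0.000887 by limma). The kinase gene Bub1 had 79.4 and 54.3 CPM in the lines against 2.73 to 7.86 CPM, and Ttk, which encodes the kinase Mps1 that starts the signal, had 34.0 and 28.5 CPM against 1.42 to 4.09 CPM. Mad2l1 encodes Mad2, which with BubR1 inhibits Cdc20, and rose by 2.87 ± 0.24 (SE) on the log2 scale. Bub3, the partner of both Bub1 and BubR1, had 144 and 135 CPM in the lines and 74.9 to 82.3 CPM in primary cultures. Its groups did not overlap either, but its log2 difference was only 0.84 ± 0.07 (SE; adjusted p = 9.31e-05 by limma).

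The kinase Aurora B (Aurkb, chromosome 11, 68936467 to 68944764) had 68.9 CPM in PMC-303, 55.5 CPM in PMC-306 and 2.94 to 6.74 CPM in primary cultures, median 5.21 CPM. Its log2 difference was 3.66 ± 0.30 (SE; adjusted p = 0.000104 by limma). Birc5, encoding survivin, had 70.7 and 66.7 CPM in the lines against 2.83 to 8.65 CPM, and Cdca8, encoding borealin, rose by 2.92 ± 0.27 (SE) on the log2 scale. The scaffold gene Incenp had 92 CPM in PMC-303, 116 CPM in PMC-306 and 10.8 to 18.7 CPM in primary cultures, a log2 difference of 2.72. Of the shugoshins, which protect cohesin at the centromere, Sgo1 had 47.7 and 39 CPM in the lines against 1.78 to 4.85 CPM. Sgo2a had 73.6 and 63.0 CPM against 2.67 to 8.02 CPM.

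Levels of different genes were compared by the deposited TPM, which account for transcript length as well as depth, and only within a library. A few short noncoding RNAs took 29.0% to 43.8% of the TPM, most in male culture 3, so that TPM of a gene is not comparable between libraries without regard to this. Ratios were formed for 10 pairs of genes, picked with the values in view, and are given as a description. Zwint exceeded Knl1 by 14.5 to 53.6 times, median 23.5, but by 2.28 times in PMC-303 and 2.28 times in PMC-306. Bub3 exceeded Bub1b by 9.97 to 39.1 times in primary cultures and by 1.98 and 2.12 times in PMC-303 and PMC-306. For Cenpc1 over Cenpa the ratio was 2.08 to 6.39 in primary cultures, and it was 0.419 in PMC-303 and 0.314 in PMC-306. In the Ndc80 complex, Spc25 had 1.75 to 2.55 times the TPM of Ndc80 in primary cultures and 2.08 and 1.77 times in the lines. For this pair the lines lay within the primary range. The complex as a whole differed in PMC-303, where Ndc80 was the lowest subunit, whereas Spc24 was lowest in PMC-306 and all primary cultures. Spc25 over the lowest subunit was 2.08 in PMC-303, 2.68 in PMC-306 and 2.54 to 3.54 in primary cultures. In the chromosomal passenger complex only Birc5 to Aurkb was within the primary range among 3 pairs. It was 1.76 and 1.97 in the lines and 1.38 to 2.60 in primary cultures. Cdca8 to Aurkb was 0.921 and 0.920 in the lines against 1.38 to 2.33, and Incenp to Aurkb was 1.08 and 1.74 against 2.16 to 3.04.

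**Figure D3:**
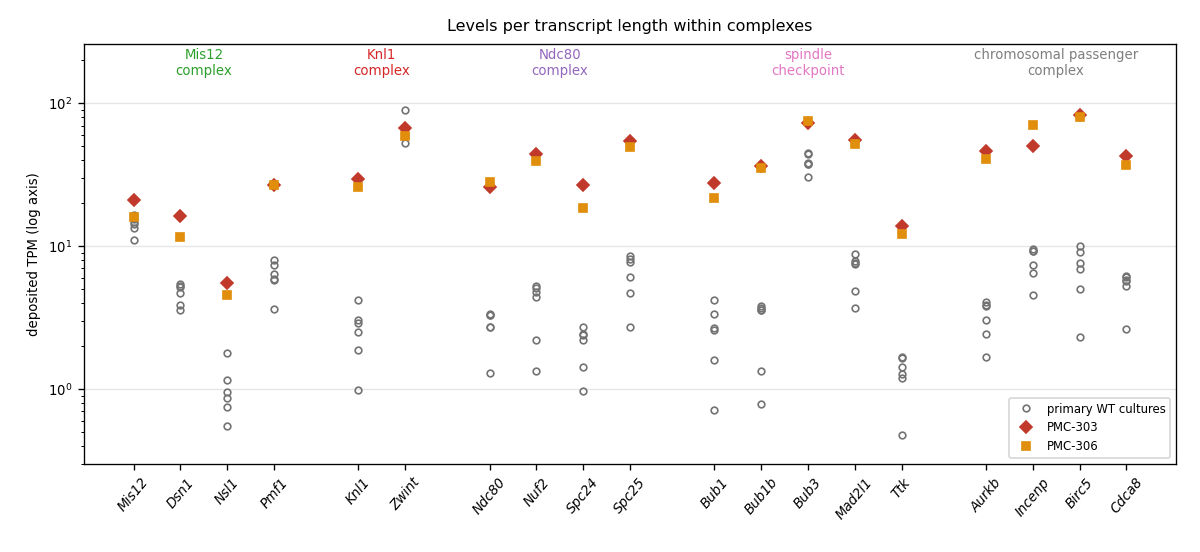
Deposited TPM on a log axis for the members of 5 complexes, to be compared between genes within a library. Grey circles are the 6 primary WT cultures, red diamonds PMC-303 and orange squares PMC-306. Zwint, Bub3 and Mis12 stand above their partners in primary cultures. The distance is smaller in the lines, where Mis12 lies under Pmf1.

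Both lines were compared with the primary cultures one by one. Against the primary mean (CPM + 0.1), the median fold of the members was 7.62 in PMC-303 and 6.77 in PMC-306. At least 5-fold higher were 29 members in PMC-303 and 26 in PMC-306, compared with 3.90% and 3.96% of all genes with at least 1 CPM in that line or on average in primary cultures. As each line has 1 library, these folds have no replicate check. PMC-303 had the higher level for 33 members and PMC-306 for 6 (Cenpa, Cenpl, Cenpo, Cenpw, Ndc80 and Incenp), and 55.5% of all genes tested were higher in PMC-303. The median log2 difference of PMC-306 minus PMC-303 was -0.23 for members and -0.05 for all genes. For 38 members the lines were within 1.5 times of each other, and the share of all genes within this ratio is not given here.

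The exception was Cenpn (chromosome 8, 117648191 to 117668246), with 730 counts in PMC-303 and 344 counts in PMC-306, a ratio of 1.77 in CPM. Against the primary mean it was 12.5-fold and 7.03-fold higher. Cmc2, whose exons overlap Cenpn on the opposite strand, had 73.3 CPM in PMC-303, 19.2 CPM in PMC-306 and 8.81 to 13.2 CPM in primary cultures, and its part in the Cenpn value was not tested. The other members on chromosome 8 had PMC-303 to PMC-306 ratios of 1.38 (Cenpu) and 1.16 (Cenpt). In the opposite direction Cenpa and Incenp were furthest, each with a ratio of 0.794.

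**Figure D4:**
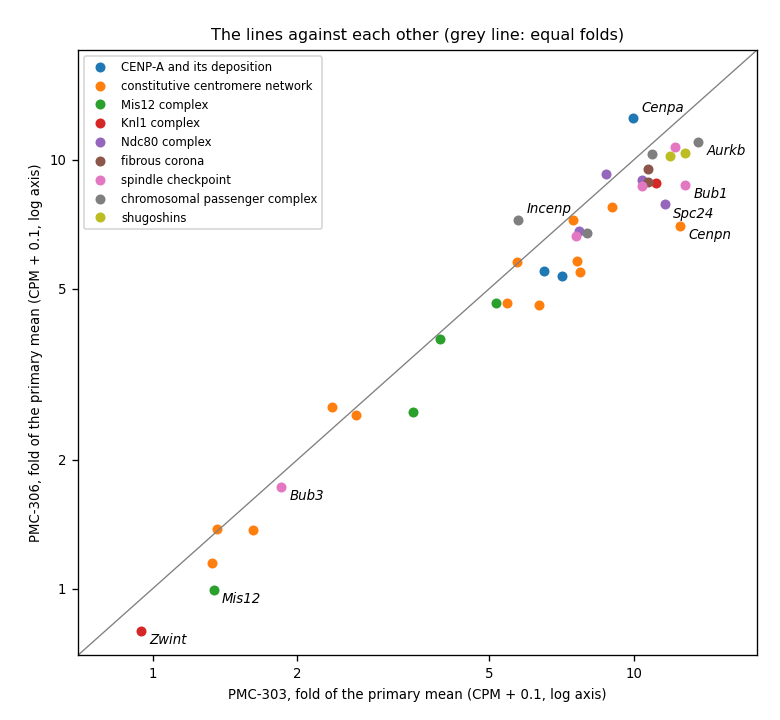
Fold of each member over the primary mean in PMC-303 (horizontal) and PMC-306 (vertical), both on log axes, coloured by complex. The grey line marks equal folds. Cenpn lies farthest under the line, and Cenpa and Incenp lie above it.

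Primary cultures were not uniform. The coefficient of variation over the 6 cultures had a median of 23.5% for members and 13.8% for all genes tested, with a range from 3.92% (Bub3) to 43.1% (Cenpf). Male culture 3 was the lowest for 27 members (69.2%), but for only 16.4% of all genes tested. It formed the lowest pair with female culture 2 for 27 members, a count given without the share of all genes. Bub1b, for instance, had 3.41 CPM in male 3 and 4.61 CPM in female 2, while the other cultures had 10.9 to 11.6 CPM. The median log2 deviation from the primary mean was -0.68 in male 3 and -0.34 in female 2 for the 33 members with a log2 difference of at least 1 in the lines. For the 6 members under 1 (Cenpc1, Cenpo, Cenpt, Mis12, Zwint and Bub3), it was 0.02 and 0.08. Median coefficients of variation were 28.8% and 10.5% in these sets, and since both measures share the primary cultures this is a description. Not all strongly raised members followed the pattern. Hjurp was highest in male 3 (30.5 CPM) and Cenpu was highest in female 2 and male 3 (2.68 CPM each).

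**Figure D5:**
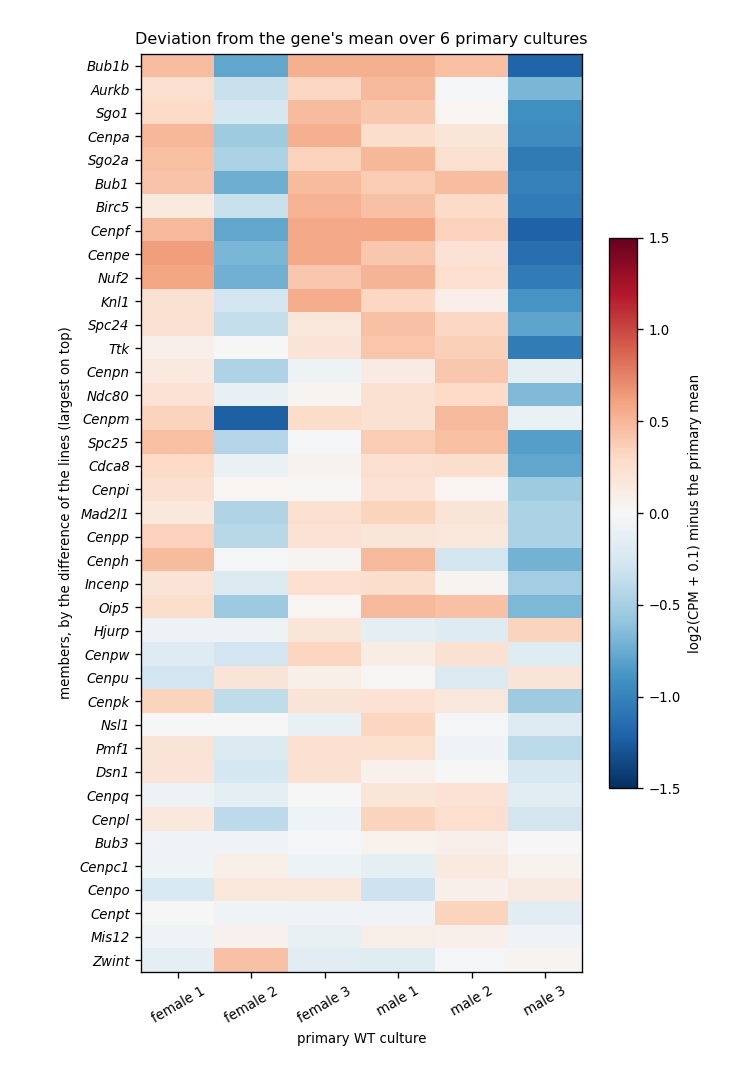
Deviation of each primary WT culture from the mean of the gene over the 6 cultures, on the log2(CPM + 0.1) scale, with members ordered by the difference of the lines. Blue fields in male 3 and female 2 mark lower levels in the upper part, and the 6 genes at the bottom are mostly pale, apart from Zwint in female 2, Cenpt in male 2 and Cenpo in female 1 and male 1.

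Of the 3 proliferation markers, Mki67 and Top2a were lowest in male 3 and female 2, whereas Pcna was lowest in male 3 and highest in female 2. Mki67 had 28.6 CPM in male 3 and 42.7 CPM in female 2 against 86.6 to 106 CPM in the other primary cultures, and 1015 and 835 CPM in PMC-303 and PMC-306. Top2a had 35.5 CPM in male 3 and 49.9 CPM in female 2 against 78.9 to 92.4 CPM in the others. Pcna had 88.2 CPM in male 3, close to 88.7 CPM in female 1, and 104 CPM in female 2. Without male 3 and female 2, a choice made after seeing the data, 36 members were still higher and the median log2 difference was 2.64. Between female and male primary cultures, 0 members were called by limma and 0 had an unadjusted p under 0.05, with 0.0438% of 13693 genes called. Limma voom, added after seeing the data, also called 0. Differences of female minus male ranged from -0.41 to 0.34 on the log2 scale, and the lowest unadjusted p was 0.196, for Bub3.

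For 37 members the transcript with most reads over the primary cultures also led in both lines. Over all 39 members, the share of this transcript in both lines lay within the range of the primary cultures for 27, Cenpa and Incenp among them. Ndc80-201 lay outside, with 89.0% and 85.8% of the Ndc80 reads in PMC-303 and PMC-306 and 66.4% to 82.0% in primary cultures. The leading transcript of Bub1b, Bub1b-201, took 98.6% of its reads in PMC-303, 97.6% in PMC-306 and at least 96.8% in primary cultures. Zwint-201 took 59.5% and 58.0% in the lines and 53.3% to 59.2% in primary cultures. For Incenp and Cenpa, the leading transcript of the primary cultures did not lead in both lines. Incenp-201 and Incenp-205 took 43.5% and 40.8% in PMC-303 and 35.5% and 35.7% in PMC-306, and their order varied in primary cultures, for example with 23.8% and 49.6% in female 1 and 54.9% and 25.5% in female 3. Reads of Cenpa were split among the coding Cenpa-205, with 31.2% and 30.8% in the lines and 22.7% to 39.9% in primary cultures, a transcript annotated for nonsense-mediated decay (Cenpa-202) and a retained intron (Cenpa-208). For members with few reads, such as Aurkb in primary cultures, where Aurkb-201 took 35.1% to 97.9%, the shares are uncertain.

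Further genes that are not members were 54 of mitosis and the 3 proliferation markers. Of these 57 genes, 40 were higher in the lines and 0 lower by limma, against 18.3% and 15.5% of all genes tested. Without the markers, 37 of 54 were higher. At an unadjusted p under 0.05, 1 was lower (Mad2l1bp, with a log2 difference of -0.25), and limma voom called 0 lower. All 7 other outer kinetochore genes rose, from 0.45 (Zw10) to 3.55 (Ska1) on the log2 scale, and so did 5 of 6 further centromere genes. The gene of the centromere protein CENP-B, Cenpb, had 97.3 and 95.3 CPM against 73.6 to 89.9 CPM and did not pass the test (adjusted p = 0.0649 by limma). Of 22 genes of the checkpoint and of the anaphase-promoting complex, its target, 11 were higher. Cdc20, the activator that the checkpoint inhibits, rose by 3.47 ± 0.48 (SE) and the ubiquitin-conjugating enzyme gene Ube2c by 3.90 ± 0.42 (SE). Mad1l1, the receptor of Mad2 at kinetochores, had 31.7 and 24.5 CPM in the lines and 22.8 to 26.7 CPM in primary cultures (adjusted p = 0.270 by limma). Of the core subunits, Anapc5 rose by 1.04, Cdc27 by 0.68, Cdc16 by 0.57, Cdc26 by 0.38 and Anapc4 by 0.36 on the log2 scale. The other core subunits listed were not called, among them Anapc1 and Anapc2 with log2 differences of 0.22 and -0.01.

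Of 9 genes for mitotic kinases and chromosome separation, 8 rose, with log2 differences of 3.57 for Plk1 and 3.58 for Cdk1. The separase inhibitor securin (Pttg1) was not called, with a log2 difference of 2.28 ± 1.03 (SE; adjusted p = 0.123 by limma). It had 33.4 and 29.6 CPM in the lines, 16.9, 18.2 and 18.8 CPM in female 1, male 1 and male 2 and 1.93, 3.01 and 1.89 CPM in female 2, female 3 and male 3. Both lines were above all primary cultures, and female 3 was low for Pttg1 although it was not low for Bub1b (11.6 CPM). Of 10 cohesin genes 6 rose, among them Smc3 by 1.17 and the cohesin protector Cdca5 by 2.29 on the log2 scale. Wapl, which releases cohesin, had 241 and 219 CPM against 202 to 229 CPM and was not called (adjusted p = 0.432 by limma).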

How the data were processed

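RNA from 8 cultures was analysed. According to the paper, the authors used a stranded total RNA kit and the nf-core/rnaseq pipeline, with reads trimmed by Trim Galore 0.6.7, aligned to GRCm39 by STAR 2.7.9a and quantified by Salmon 1.5.2. Estimated counts of genes and of transcripts, without normalization, and TPM of genes were deposited. A spreadsheet program had rewritten cells, namely 3.37% for gene counts, 3.22% for transcript counts and 20.8% for TPM. Of the 312 member counts 23 were affected. Counts were restored to their single reading, and 99.7% of gene counts then differed from their transcripts' sum by at most 0.2 counts. In 9426 TPM cells the position of the point was chosen to fit the counts. As the cells were deposited as text, no count model was used.

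CPM with TMM library sizes were tested as log2(CPM + 0.1) by limma 3.58.1 with a mean-variance trend in R 4.3.3, for genes with about 10 counts in enough libraries and 15 in total. All 39 members passed this filter. Lines of 1 library each were treated as replicates of one group. The p-values rest on the spread within both groups, mostly among the 6 primary cultures and to a lesser part between the 2 lines. They do not measure the spread within a line. All members, a list of further mitotic genes with 3 proliferation markers, and cell type markers are named. The members and lists were chosen with earlier results of these data known. Coordinates are from GENCODE M39, and exons of 24 members overlap another gene, on the same strand for 1 (Dsn1). Whether the counting used strand is not given in the sources used here, so that reads of such pairs are uncertain. The fit was tested on simulated data. Other calculations used Python 3.11.15 (pandas 2.3.3, numpy 2.4.6).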

Additional observations from a re-analysis of the deposited data

Results flagged for a closer look

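Among the 6 primary cultures, 4 of 39 members had 1 culture far from the others by Dixon's test at 95%, and chance gives about 1.95. Cenpi was low in male 3, with 2.83 CPM against 4.17 CPM in the next culture. Cenpt was high in male 2, with 16.2 CPM against 12.7 CPM. Nsl1 was high in male 1, with 3.78 CPM against 3.03 CPM. Zwint was high in female 2, with 131 CPM against 99.4 CPM. Without male 2 the log2 difference of Cenpt was 0.38 and passed the test. Nsl1 and Cenpi were higher in the lines in every alternative analysis run, and Zwint was called in none.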

How the results depend on the processing

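In all alternatives for the lines, 35 or 36 of 39 members were higher and 0 lower, apart from the analysis without genes with rewritten cells, which left 24 members, of which 23 were higher. The median log2 difference was between 2.64 and 2.98. When each library was left out in turn, 35 to 36 members were higher, 0 were lower and the median was 2.77 to 2.96. Of 726 values of single members under alternatives, 712 kept their direction and their side of the threshold. The 11 lost calls were all of Cenpo, Cenpt was gained without male 2 and Mis12 without PMC-306 (0.42), and the Mis12 difference turned to -0.00 without PMC-303. The cause was not tested. Total counts shifted the median log2 difference of all genes to 0.10, with 3406 higher and 1665 lower, and deposited TPM to 0.13, with 2370 higher and 983 lower, in place of 2659 and 2254. The members' medians were 2.98 and 2.97 in these scalings. With an offset of 1 CPM, 23 members in PMC-303 and 21 in PMC-306 were at least 5-fold higher, in place of 29 and 26.

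Between the sexes 0 members were called in every alternative, also with the replicate block (0 members). Deviations of same-numbered cultures correlated with 0.40, -0.22 and 0.28 over genes. Female 3 correlated best with its own number, whereas female 1 (0.42 with male 2) and female 2 (0.38 with male 3) did not. Such correlations cannot decide whether the cultures were paired. Depth limits the members with few reads, such as Cenpm, which held 7 counts in its lowest library. With 1 library per line, the spread within a line is unknown.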
